A study of Mus musculus with 6 samples.

Results

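A group of 10 genes of the canonical Wnt pathway was followed in mouse intestinal organoids, cultured epithelial structures grown from gut stem cells: Axin2, Rnf43, Znrf3, Lgr4, Tcf7, Myc, Sox9, Ephb2, Ephb3 and Cd44. They were chosen by symbol, as feedback regulators or common targets of the pathway, and all 10 were found among the 24786 gene symbols of the count table. The study compared wild-type organoids kept for 16 h with 100 µM tyramine, a tyrosine-derived amine made by some bacteria of the gut (3 libraries), with wild-type organoids in control medium (3 libraries). All organoids had been dissociated into single cells for 10 min beforehand. The control libraries are titled by the solvent DMSO, and the labels do not say whether the tyramine cultures also held DMSO. The age and sex of the mice, the gut segment and the number of mice behind the cultures are not given either, so the p-values reflect only how these libraries varied, and that variation may be technical.

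In canonical Wnt signalling, a Wnt ligand binds Frizzled and LRP receptors at the cell surface, beta-catenin escapes destruction, and TCF transcription factors with beta-catenin switch on target genes. Several of those targets brake the pathway in turn: AXIN2 rebuilds the complex that destroys beta-catenin, and the ubiquitin ligases RNF43 and ZNRF3 remove Frizzled receptors. R-spondins, bound by LGR receptors such as LGR4, clear the 2 ligases and so raise the signal, and in the gut this circuit maintains the stem cells of the crypt base.

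Ephb2 and Ephb3 are related receptor genes that moved in opposite directions, and Rnf43 and Znrf3 are related ligase genes with opposite differences. For each pair, the stretches of coding sequence around the longest exact run shared by both genes are therefore shown, from the GENCODE M21 transcripts. Stretches of higher identity were not searched for. Each line runs 5′ to 3′ in the sense of the transcript, capitals mark bases that both genes of a pair share at that position, and lower case marks bases that differ.
Ephb3 (chromosome 16): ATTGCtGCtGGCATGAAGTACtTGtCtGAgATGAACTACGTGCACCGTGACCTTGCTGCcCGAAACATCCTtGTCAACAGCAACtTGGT
Ephb2 (chromosome 4): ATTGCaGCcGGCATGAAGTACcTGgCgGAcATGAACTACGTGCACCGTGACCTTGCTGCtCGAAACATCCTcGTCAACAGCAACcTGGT
Rnf43 (chromosome 11): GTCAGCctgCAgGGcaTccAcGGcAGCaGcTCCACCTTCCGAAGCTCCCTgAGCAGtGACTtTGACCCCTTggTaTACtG
Znrf3 (chromosome 11): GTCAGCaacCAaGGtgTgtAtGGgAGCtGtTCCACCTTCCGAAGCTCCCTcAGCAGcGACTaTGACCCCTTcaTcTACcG
The Eph stretches were identical at 80 of 89 bases, and 29 bases was the longest run that Ephb3 and Ephb2 transcripts shared without a difference. The ligase stretches were identical at 61 of 80 bases, with a longest shared run of 20 bases. Reads were 150 bases long at each end, so a full-length read without errors does not match both genes of either pair. Outside the pairs, the longest exact run that a member's coding transcripts shared with another gene was 104 bases, between Axin2 and Gm11670, an antisense gene that overlaps it and has no row of its own in the count table. The counting rule and its strand setting are not given, so counts from Gm11670 within Axin2 cannot be told apart from those of Axin2.

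The members lie on few chromosomes (GRCm38, GENCODE M21). Chromosome 11 holds 5 of the 10: Axin2 (108920349 to 108950783, plus strand), Rnf43 (87662722 to 87735539, plus), Znrf3 (5276324 to 5444847, minus), Tcf7 (52252371 to 52283014, minus) and Sox9 (112782224 to 112787760, plus). Chromosome 2 holds Lgr4 (109917647 to 110014257, plus) and Cd44 (102811141 to 102901665, minus). Ephb2 is on chromosome 4 (136647539 to 136835988, minus), Myc on chromosome 15 (61985391 to 61990374, plus) and Ephb3 on chromosome 16 (21204755 to 21223305, plus). All are protein-coding genes, with 2625 bases (Tcf7) to 12608 bases (Ephb2) of exon.

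RefSeq promoter windows (GRCm38.p6, 250 bases before to 50 bases after the start) were matched for 7 of the 10 members, 9 windows in all. Rnf43 and Tcf7 had 2 windows each, and Znrf3, Myc and Sox9 had no window and were not searched. The TCF motif was searched on both strands as CTTTGAT or CTTTGAA, whose core CTTTG both contain. Of the 9 windows, 0 held CTTTGAT or CTTTGAA, against 8.65% of the 32851 windows of the RefSeq table. The core CTTTG was in 1 of the 9 windows, that of Cd44, against 53.9% of the whole table, and longer distances from the start were not searched. The 250 bases before the start of Ephb2, the member with the clearest fall, and of Cd44, which holds the core match, are shown 5′ to 3′ on the gene's strand, with the match in capitals.
Ephb2, chr4:136836013-136836262, minus strand: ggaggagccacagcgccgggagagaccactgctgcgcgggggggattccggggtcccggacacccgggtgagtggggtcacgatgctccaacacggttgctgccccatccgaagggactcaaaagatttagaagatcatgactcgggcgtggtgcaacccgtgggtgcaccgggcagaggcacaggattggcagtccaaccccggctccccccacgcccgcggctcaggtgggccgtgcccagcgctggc
Cd44, chr2:102901666-102901915, minus strand: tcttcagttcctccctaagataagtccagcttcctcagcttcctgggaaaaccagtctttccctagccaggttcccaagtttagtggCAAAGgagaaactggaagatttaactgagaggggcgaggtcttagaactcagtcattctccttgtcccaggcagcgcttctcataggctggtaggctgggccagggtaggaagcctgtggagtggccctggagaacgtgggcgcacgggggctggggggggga
The Cd44 match reads CAAAG, the core on the opposite strand, and begins 163 bases before the start. A match of these letters is a description of the sequence and not a binding site.

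The 6 libraries held 28316372 to 35035955 counts. The tyramine libraries scattered more than the controls, with a chi-square over genes, divided by its degrees of freedom, of 53.3 to 99.4 between tyramine replicates and 26.8 to 34.97 between controls. Epithelial genes were abundant in both groups, and the 10 on the list summed to 18123 to 20395 CPM in tyramine libraries and 20385 to 21937 CPM in controls (CPM, counts scaled to a common effective library size). Of these 10, 2 rose (Cdh1 and Krt18) and 4 fell, among them the intestinal genes Vil1 (2.69-fold) and Cdx2 (3.46-fold, to a mean of 5.93 CPM with tyramine, against 20.5 CPM in controls). The summed levels in tyramine and control libraries were 24.8 to 32.8 and 23.9 to 24.7 CPM for 11 mesenchymal markers, 7.93 to 9.33 and 7.12 to 10.1 CPM for 8 immune markers, 0.348 to 2.47 and 0.456 to 1.19 CPM for 5 endothelial markers, and 1.98 to 9.09 and 4.08 to 6.61 CPM for 6 neural and glial markers.

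With tyramine the 10 genes did not move as a block. Ephb3, a receptor for ephrin-B ligands, rose, and Ephb2, its close relative, and Rnf43 fell, while 7 members did not pass the threshold (quasi-likelihood F-test of edgeR, p adjusted by Benjamini-Hochberg over all 12139 tested genes, under 0.05). Of all tested genes 12.5% rose and 13.3% fell, so 1 rising and 2 falling members of 10 are close to that background. The median log2 fold change of the members was -0.11, against 0.0041 over all tested genes. In 6 members the tyramine and control libraries did not overlap, 2 of them higher and 4 lower with tyramine, and 44.5% of all tested genes had no overlap. A fitted difference of at least 2-fold with no call was seen for 2 members, Znrf3 and Tcf7, and for 13.2% of all tested genes. All 10 passed the filter on low counts, with 18 to 3189 counts per library.

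**Figure D1:**
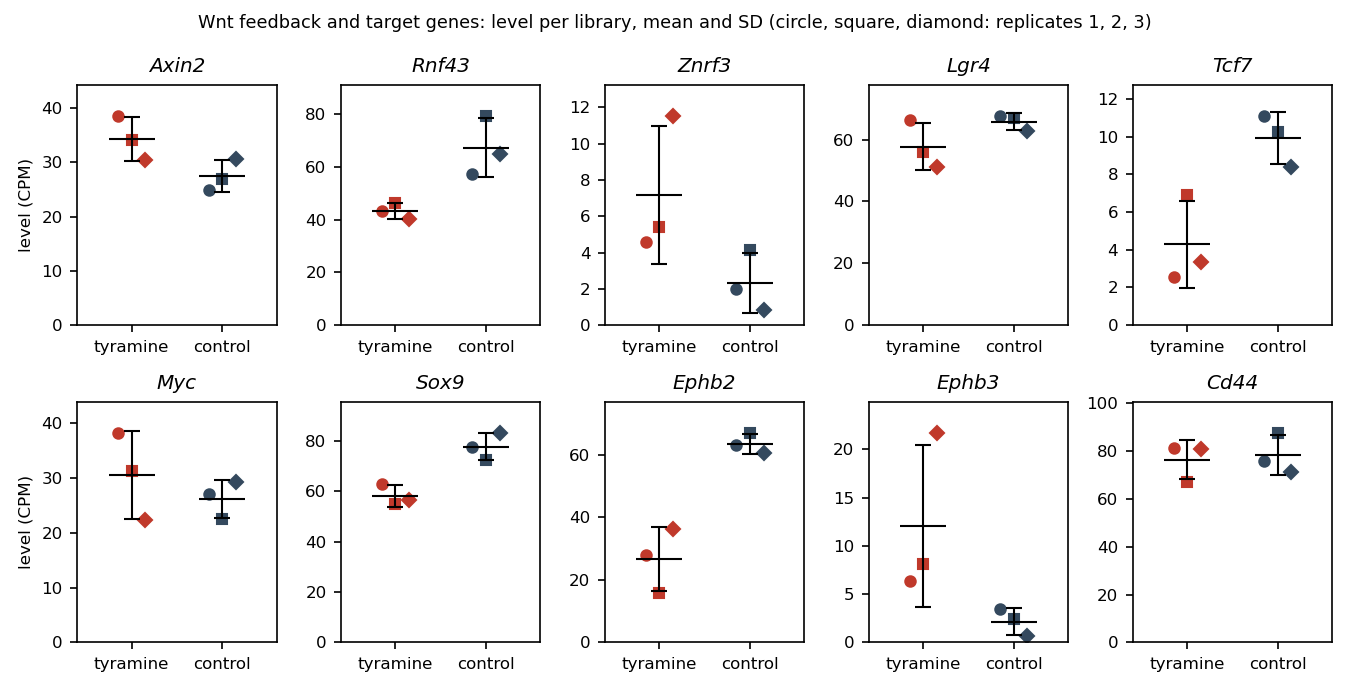
Level of each member in CPM per library, tyramine on the left and control on the right of each panel, with circles, squares and diamonds for replicates 1, 2 and 3, and the black bar and whiskers for mean and SD (n = 3 each). Ephb2, Rnf43, Sox9 and Tcf7 lie lower in all 3 tyramine libraries than in any control, Ephb3 and Znrf3 lie higher, and the other 4 overlap.

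The feedback inhibitors differed among themselves. Rnf43 had 43.3, 46.3 and 40.1 CPM in tyramine replicates 1 to 3, against 57.3, 79.3 and 65.0 CPM in control replicates 1 to 3. Every tyramine library lay below every control, and the tyramine libraries were closer together than the controls. With tyramine Rnf43 fell 1.55-fold, a log2 fold change of -0.64 with an SE of 0.17 (edgeR adjusted p = 0.023). The call was lost without control replicate 2 (log2 fold change -0.51, edgeR adjusted p = 0.132) or control replicate 3 (-0.66, edgeR adjusted p = 0.0716).

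Znrf3, the partner ligase, had the opposite sign at a far lower level. It had 4.55, 5.38 and 11.5 CPM in tyramine libraries, against 2.01, 4.11 and 0.842 CPM in controls. The groups did not overlap, but control replicate 2 lay close to tyramine replicate 1, and tyramine replicate 3 was more than double the other tyramine libraries. The log2 fold change was 1.62 (95% interval 0.00031 to 3.24), with an edgeR adjusted p = 0.136, not past the threshold. Leaving out single libraries gave 1.09 to 2.32.

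Axin2, the scaffold often read as a general Wnt reporter, had 38.6, 34.1 and 30.5 CPM in tyramine libraries, against 24.9, 27.0 and 30.6 CPM in controls. Tyramine replicate 3 lay just under control replicate 3, so the groups overlapped. The log2 fold change was 0.32 (95% interval -0.14 to 0.78, edgeR adjusted p = 0.301), a range of 0.909 to 1.72-fold, so the interval excludes a doubling and a halving. Lgr4, the R-spondin receptor that opposes RNF43 and ZNRF3, had 66.2, 56.0 and 51.0 CPM with tyramine and 67.7, 66.9 and 62.6 CPM in controls. Tyramine replicate 1 lay among the controls and the other two lay below them. Its log2 fold change was -0.19 (95% interval -0.54 to 0.16, edgeR adjusted p = 0.438).

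Of the transcription factor genes, none passed the threshold, with Sox9 nearest to it. Sox9, a factor of crypt base progenitors and Paneth cells, had 63.1, 55.1 and 56.5 CPM in tyramine libraries, against 77.6, 72.6 and 83.2 CPM in controls. The groups did not overlap. The log2 fold change was -0.42 (95% interval -0.73 to -0.10), with an edgeR adjusted p = 0.0554. Scaled to library totals alone the adjusted p = 0.0251 (log2 fold change -0.50), and by DESeq2 the adjusted p = 0.0125, both past the threshold. With single libraries left out the edgeR adjusted p was 0.0509 to 0.186, never past it.

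Tcf7, which encodes the beta-catenin partner TCF1, had 2.58, 6.92 and 3.34 CPM with tyramine and 11.1, 10.3 and 8.39 CPM in controls. All tyramine libraries were lower than all controls, and tyramine replicate 2 lay nearest to them. The log2 fold change was -1.21 (SE 0.50, edgeR adjusted p = 0.108), and -1.74 without tyramine replicate 2, which passed the threshold (edgeR adjusted p = 0.0286). Leaving out each other library in turn gave an edgeR adjusted p of 0.154 to 0.283, not past the threshold. By DESeq2 on all 6 libraries the adjusted p = 0.0474.

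Myc, a regulator of growth and the classic Wnt target of the crypt, had 38.2, 31.2 and 22.3 CPM in tyramine libraries, against 27.0, 22.4 and 29.2 CPM in controls. Tyramine replicate 3 was the lowest of all 6 libraries and tyramine replicate 1 the highest. The log2 fold change was 0.22 (95% interval -0.34 to 0.78, edgeR adjusted p = 0.587), and leaving out tyramine replicate 1 gave 0.031 and tyramine replicate 3 gave 0.40.

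**Figure D2:**
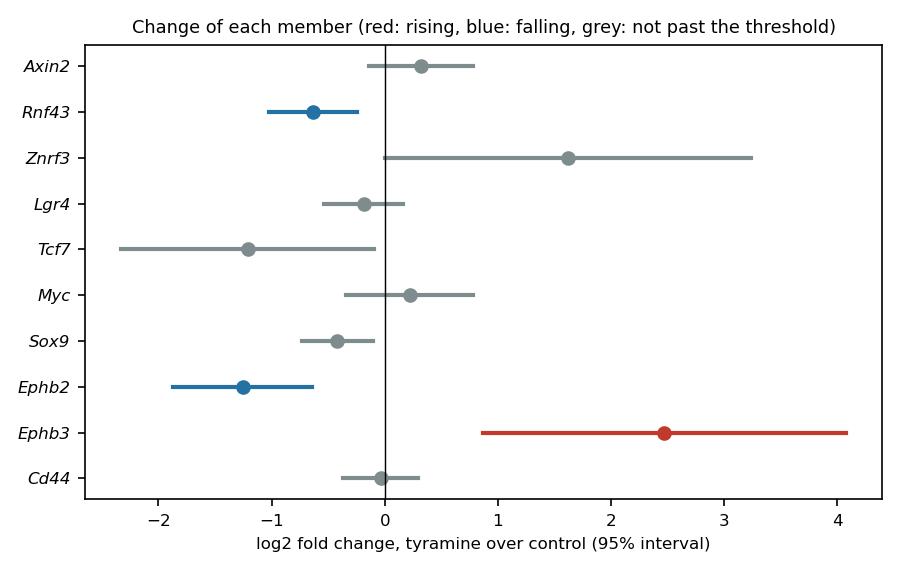
Log2 fold change of tyramine over control for each member (horizontal axis), with its 95% interval from the edgeR fit, ordered by role from feedback inhibitors at the top to cell surface targets at the bottom. Ephb3 at 2.47 stands to the right of zero and Ephb2 at -1.25 to the left, and 4 of the 7 grey intervals cross zero.

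Among the cell surface targets, the 2 Eph receptors moved apart. Both bind ephrin-B ligands and help to sort cells along the crypt axis. Ephb2 had 28.03, 15.8 and 36.2 CPM in tyramine libraries, against 63.2, 67.0 and 60.7 CPM in controls. Every tyramine library lay well below the controls, which were tightly grouped, while the tyramine libraries spread over more than 2-fold. With tyramine Ephb2 fell 2.39-fold, a log2 fold change of -1.25 with an SE of 0.27 (edgeR adjusted p = 0.00804). It was called in all 6 fits with a library left out, with log2 fold changes of -1.54 to -0.98.

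Ephb3 had 6.39, 8.08 and 21.7 CPM in tyramine libraries, against 3.42, 2.44 and 0.632 CPM in controls. The groups did not overlap, tyramine replicate 3 was far above the other two, and control replicate 3 was far below its group. Ephb3 rose 5.55-fold (log2 fold change 2.47 with an SE of 0.72, 95% interval 0.87 to 4.08, edgeR adjusted p = 0.0299). The call did not survive the loss of control replicate 1 (log2 fold change 2.95, edgeR adjusted p = 0.0547), control replicate 2 (2.56, 0.0933), control replicate 3 (2.03, 0.0881) or tyramine replicate 3 (1.74, 0.101), although the sign was positive in each.

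Cd44, the hyaluronan receptor of proliferating crypt cells, had 81.3, 67.2 and 80.8 CPM with tyramine, against 76.0, 87.5 and 71.1 CPM in controls. The values were interleaved. The log2 fold change was -0.03 (95% interval -0.36 to 0.30, edgeR adjusted p = 0.903), and the interval excludes changes beyond 0.777 to 1.23-fold. The count is of the whole gene, so splice forms of Cd44 are not separated.

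**Figure D3:**
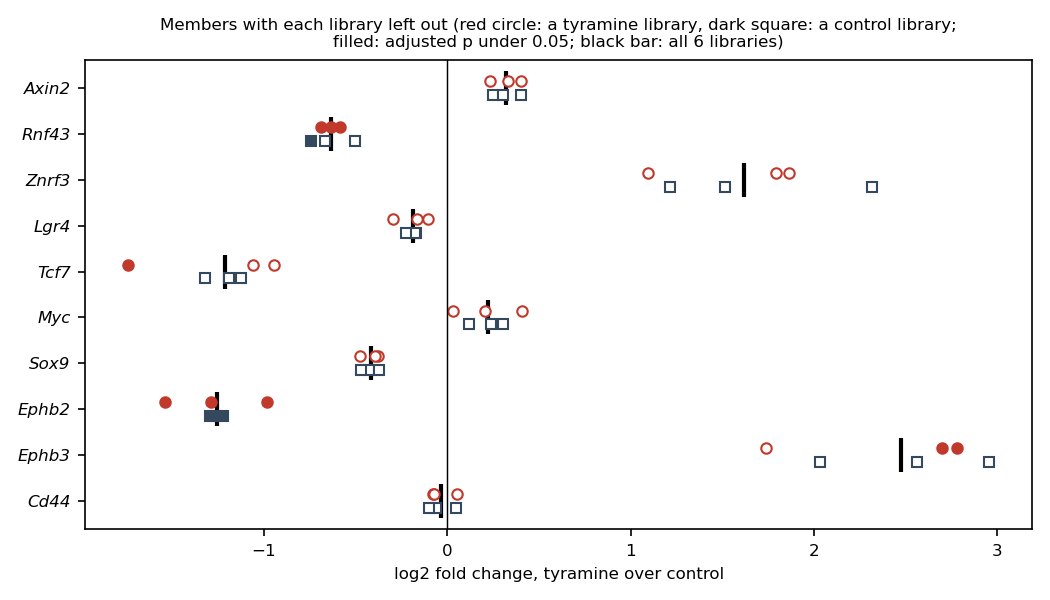
Log2 fold change of each member (horizontal axis) with all 6 libraries (black bar) and with one library left out (red circles for a tyramine library, dark squares for a control library, filled where the adjusted p was under 0.05). Ephb2 is filled in all 6 fits, Ephb3 and Rnf43 in some, and Cd44 lies on both sides of zero.

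A ratio of 2 genes in the same library needs no scaling between libraries, and it was taken per kilobase of exon. Ephb2 over Ephb3 was 2.31, 1.03 and 0.880 in tyramine libraries, against 9.72, 14.5 and 50.6 in controls. By this measure the 2 receptor genes stood at about the same level in tyramine replicates 2 and 3. Ephb2 was the higher by at least 9.72-fold in each control. The lengths were of all annotated exons joined, 12608 bases for Ephb2 and 6641 for Ephb3. The transcripts of the stretches shown above have 4804 and 4185 bases, and with those lengths Ephb2 would stand higher against Ephb3 in every library. The difference between the groups does not depend on the lengths. The mean log2 ratio differed by -3.91 (exact two-sided permutation test, p = 0.1, the smallest that 3 against 3 libraries can give).

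Rnf43 over Znrf3 was 11.4, 10.4 and 4.19 with tyramine and 34.4, 23.2 and 92.9 in controls, a log2 difference of -2.41 (exact permutation p = 0.1). Rnf43 was the higher of the ligase genes in every library, by less with tyramine. Lgr4 over Rnf43 was 1.71, 1.35 and 1.42 with tyramine, against 1.32, 0.940 and 1.07 in controls, a log2 difference of 0.43 (exact permutation p = 0.1). The 3 pairs were chosen with the members' changes known, and with Benjamini-Hochberg adjustment over the 3 the p stays 0.1.

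**Figure D4:**
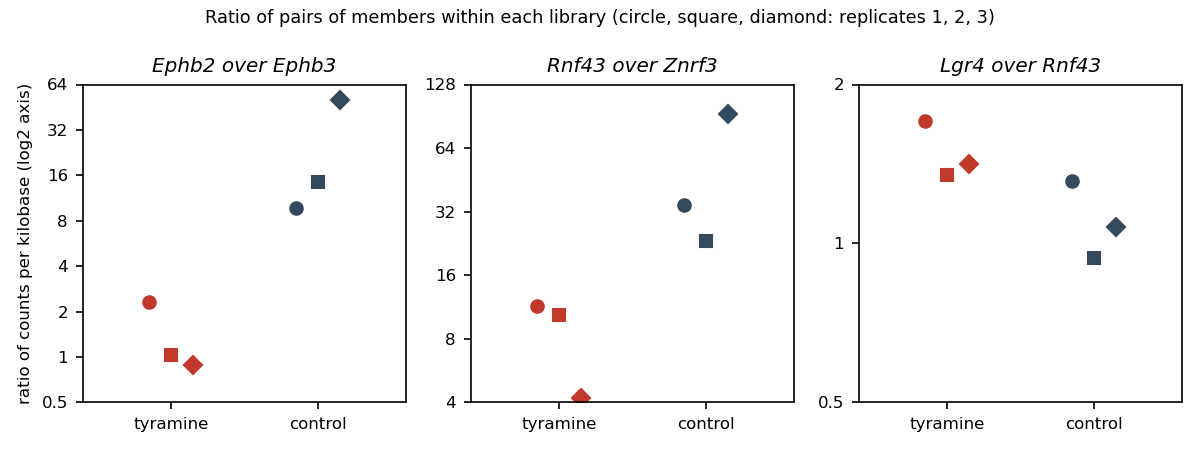
Ratio of counts per kilobase of exon for 3 pairs of members within each library, on log2 axes, tyramine on the left and control on the right of each panel (circles, squares and diamonds for replicates 1, 2 and 3). Ephb2 over Ephb3 lies between 0.880 and 2.31 in tyramine libraries and between 9.72 and 50.6 in controls.

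Levels can be ordered between genes only after division by a length, here all annotated exons of a gene joined. That length can exceed a single transcript, as for Ephb2 with 12608 bases of exon and a coding transcript of 4804 bases. The order below therefore holds for the joined exons only, and Ephb2 would have a higher level per kilobase by that transcript. In tyramine libraries Sox9 led with 14.1 ± 1.02 CPM per kilobase, followed by Cd44 at 11.3 ± 1.18, Myc at 11.2 ± 2.93 and Lgr4 at 9.82 ± 1.32 (SD, n = 3). The libraries of Cd44, Myc and Lgr4 overlapped one another, and those of Myc (8.20 to 14.05) also overlapped those of Sox9 (13.3 to 15.2). Rnf43 at 6.60 ± 0.473 and Axin2 at 6.24 ± 0.740 overlapped, as did Ephb2 at 2.12 ± 0.816, Ephb3 at 1.82 ± 1.26, Tcf7 at 1.63 ± 0.883 and Znrf3 at 0.906 ± 0.482, each with its neighbour. In controls Sox9 led with 18.8 ± 1.28 CPM per kilobase. Cd44 (11.5 ± 1.24), Lgr4 (11.2 ± 0.462), Rnf43 (10.3 ± 1.70) and Myc (9.65 ± 1.27) each overlapped the next, as did Ephb2 (5.05 ± 0.252) and Axin2 (5.0 ± 0.524). Tcf7 (3.78 ± 0.528) stood below them, and Ephb3 (0.326 ± 0.213) and Znrf3 (0.294 ± 0.210) overlapped at the bottom.

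Scatter within a group also set members apart. The coefficient of variation over replicates was 69.6% with tyramine and 65.4% in controls for Ephb3, and 53.2% and 71.4% for Znrf3. For Sox9 it was 7.27% with tyramine and 6.78% in controls. Ephb2 and Tcf7 were even in controls (5.002% and 14.0%) and uneven with tyramine (38.6% and 54.2%).

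The circuit around the members was read from 10 lists of related genes. They held 168 symbols outside the members, of which 167 were in the count table and 94 were tested. In all, 14 rose (14.9% of those tested) and 12 fell (12.8%), close to the 12.5% and 13.3% of all tested genes, and the median log2 fold change was 0.047. Without control replicate 3 the rising genes numbered 9, and without control replicate 1 or 2 the falling genes numbered 7 and 6. Of the 26 genes, 14 were called in all 6 fits with a library left out. Over the whole table, 25.8% of genes were called with all libraries and 15.8% to 16.5% with a control library left out. With a tyramine library left out it was 23.2% to 26.2%. The share of all genes called in all 6 fits was not computed.

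Wnt ligand genes were sparse. Of 21 ligand and secretion genes, 5 were tested, Wnt5a rose and Wnt5b fell. That is 20% in each direction, against 12.5% rising and 13.3% falling of all tested genes. Wnt5a, a ligand known for beta-catenin-independent signalling, had 171, 126 and 291 counts with tyramine, against 0, 4 and 6 counts in controls, a fitted log2 fold change of 5.93 (edgeR adjusted p = 0.00426). Wnt5b had 0 counts in all 3 tyramine libraries and 109, 27 and 65 in controls, which is at least 21.7-fold lower when each tyramine library is set to a floor of 3 counts. Its call was lost without control replicate 1 (edgeR adjusted p = 0.0508). Wnt3, the ligand that Paneth cells supply, had 0 counts in every tyramine library and 2, 30 and 0 in controls, too few to test.

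At the receptor level, 0 of 9 tested genes among 16 passed the threshold by edgeR, and 0 had an unadjusted p under 0.05. Ror2, with the smallest p of them, had 28, 0 and 0 counts with tyramine and 114, 135 and 92 in controls (edgeR adjusted p = 0.164). Lrp6, the co-receptor of Frizzled, averaged 107 ± 15.1 CPM with tyramine and 87.2 ± 10.1 CPM in controls (SD, n = 3; edgeR adjusted p = 0.177). None of 6 R-spondin and LGR genes had enough counts to be tested. Lgr5 had 0, 2 and 10 counts with tyramine and 37, 17 and 2 in controls, so Lgr4 was the 1 LGR gene that could be tested. Of 17 inhibitor genes 2 were tested and 0 passed by edgeR, with 0 at an unadjusted p under 0.05, and Kremen2, with the smaller p, had 0, 39 and 63 counts with tyramine and 4, 24 and 0 in controls.

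Among 21 tested of 25 cytoplasmic transducers, 5 rose (23.8%) and 1 fell (4.76%), against 12.5% and 13.3% of all tested genes. Tnks2, a tankyrase that marks AXIN proteins for destruction, rose 1.58-fold to 163 ± 14.98 CPM with tyramine, against 103 ± 5.27 CPM in controls (edgeR adjusted p = 0.00273). The casein kinase genes Csnk1g3 and Csnk1e rose 1.57-fold and 1.88-fold. The other two rising genes, Csnk1d (log2 fold change 0.53) and Tnks (0.54), lost their calls without control replicate 1, 2 or 3 (edgeR adjusted p = 0.0669, 0.0927 and 0.0955 for Csnk1d, and 0.107, 0.111 and 0.102 for Tnks), and Tnks also without tyramine replicate 3 (0.0631). Ccdc88c, which encodes the Dishevelled partner DAPLE, fell 1.68-fold to 171 ± 15.9 CPM, against 287 ± 19.95 CPM in controls (edgeR adjusted p = 0.000837). Axin1, the constitutive relative of Axin2, was not past the threshold (log2 fold change 0.21, 95% interval -0.20 to 0.62).

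Of 11 tested genes of the nuclear complex, Tle3 rose, Aes fell and 9 did not pass. The shares were 9.09% in each direction, against 12.5% rising and 13.3% falling of all tested genes. Ctnnb1, the beta-catenin gene, averaged 678 ± 42.4 CPM with tyramine and 615 ± 38.5 CPM in controls (log2 fold change 0.14, 95% interval -0.06 to 0.34). Tcf7l2, which encodes TCF4, the main intestinal TCF, averaged 25.4 ± 6.09 CPM with tyramine and 21.4 ± 1.30 CPM in controls (log2 fold change 0.25, 95% interval -0.31 to 0.81). Aes, a short relative of the TLE corepressors, fell 1.73-fold (edgeR adjusted p = 0.00574).

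Tle3, a Groucho-type corepressor gene, had 7.59, 14.8 and 37.7 CPM with tyramine and 5.79, 3.04 and 1.02 CPM in controls (log2 fold change 2.61, edgeR adjusted p = 0.0238). Its call was lost without tyramine replicate 3 (log2 fold change 1.77), control replicate 2 (2.55) or control replicate 3 (2.17). Like Ephb3 and Znrf3, Tle3 was lowest in control replicate 3 and highest in tyramine replicate 3, a likeness noticed after the values were seen.

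Other targets of the pathway also moved both ways, with 3 rising, 3 falling and 8 not past the threshold of 14 tested. That is 21.4% in each direction, against 12.5% rising and 13.3% falling of all tested genes. The median log2 fold change of these targets was -0.67. Fosl1 (8.87-fold) and Jun (3.23-fold), AP-1 transcription factor genes, and Plaur (3.84-fold), the urokinase receptor gene, rose (edgeR adjusted p = 8.16e-06, 0.00173 and 9.09e-05). Birc5, the survivin gene of dividing cells, fell to 1.14 ± 1.80 CPM with tyramine, against 129 ± 16.8 CPM in controls (edgeR adjusted p = 0.00107). The other two falling genes, Ccnd2 (log2 fold change -1.58) and Cdca7 (-1.62), lost their calls without tyramine replicate 2 or control replicate 1, 2 or 3 (edgeR adjusted p = 0.0553, 0.0665, 0.055 and 0.0567 for Ccnd2, and 0.0541, 0.0854, 0.063 and 0.0716 for Cdca7). The Wnt and stem cell target Ascl2 had 0 counts in all 3 tyramine libraries and 4, 11 and 9 in controls, too few to test, and Olfm4 had 0 with tyramine and 6, 2 and 2 in controls.

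**Figure D5:**
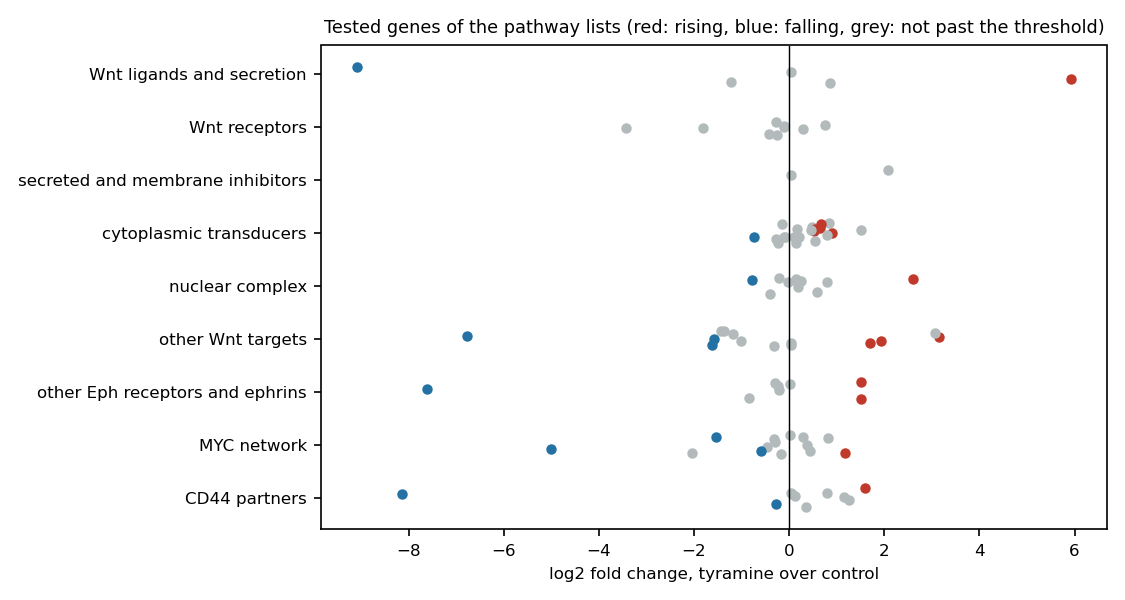
Log2 fold change of tyramine over control (horizontal axis) for the tested genes of 9 of the 10 pathway lists, 1 dot per gene, red where the gene rose, blue where it fell and grey where it did not pass the threshold. The R-spondin list had no tested gene, 7 of the 9 lists hold both red and blue dots, and the 6 dots farthest from zero rest on a group with few or no counts in most of its libraries.

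Beside Ephb2 and Ephb3, 8 of 20 other Eph and ephrin genes were tested. Of these 8, 25% rose and 12.5% fell, against 12.5% and 13.3% of all tested genes. Epha2, an ephrin-A receptor gene, rose 2.85-fold to 233 ± 11.8 CPM with tyramine, against 81.8 ± 13.3 CPM in controls (edgeR adjusted p = 4.09e-05). Epha4 also rose, and Epha7 fell, on 0 counts with tyramine and 47, 16 and 11 in controls, at least 7.78-fold lower. Epha4 lost its call in 3 of the 6 fits with a library left out and Epha7 in 5. The ephrin-B ligand genes Efnb1 and Efnb2 were not past the threshold (log2 fold changes -0.23 and -0.22).

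In the MYC network, 14 of 14 genes were tested, 1 rose (7.14%) and 3 fell (21.4%). Of all tested genes 12.5% rose and 13.3% fell. Mga, a MAX partner that opposes MYC, rose 2.24-fold (edgeR adjusted p = 0.000455), and Mlx fell 1.52-fold (edgeR adjusted p = 0.00371). Mlxipl (log2 fold change -1.53) lost its call without control replicate 2 (edgeR adjusted p = 0.0511), and Mycn (-5.003) in 5 of the 6 fits with a library left out, all but that without tyramine replicate 2 (edgeR adjusted p = 0.0885 to 0.168). Max itself, the obligate partner of MYC, was not past the threshold (log2 fold change -0.30). Of 10 tested genes around CD44, 1 rose (10%) and 2 fell (20%). Hmmr, a second hyaluronan receptor gene that is also induced in mitosis, fell to 0.519 ± 0.473 CPM with tyramine, against 146 ± 23.3 CPM in controls (edgeR adjusted p = 2.8e-06). Ezr, which encodes the cytoskeletal linker ezrin, fell (log2 fold change -0.28), with the call lost without tyramine replicate 2 or control replicate 2 (edgeR adjusted p = 0.0712 and 0.0511). Hyal1, a hyaluronidase gene, rose (log2 fold change 1.598), with the call kept only without tyramine replicate 1 and lost in the other 5 fits with a library left out (edgeR adjusted p = 0.0718 to 0.154). Esrp1 and Esrp2, whose products steer Cd44 splicing, were not past the threshold (log2 fold changes 0.12 and 0.06).

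Other cell states also moved in the same libraries, to unlike degrees, where 12.5% of all tested genes rose and 13.3% fell. Falling shares were 95% of proliferation, 91.7% of enterocyte, 57.1% of goblet, and 33.3% of Paneth and of stem cell genes tested. The Paneth and stem cell shares rest on 6 and 9 tested genes, with median log2 fold changes of -1.22 and -0.74. The stem cell genes Lgr5, Ascl2 and Olfm4 had too few counts to enter the share. Of 20 proliferation genes 19 fell and 0 rose, with summed levels of 318 to 410 CPM in tyramine libraries and 3240 to 3765 CPM in controls. Of 12 enterocyte genes 11 fell and 0 rose, with summed levels of 3206 to 3307 CPM with tyramine and 16664 to 17774 CPM in controls. Of 6 tested Paneth genes among 12, 2 fell and 0 rose (summed level 103 to 145 CPM with tyramine, 239.96 to 307 CPM in controls, 3 genes at 0 counts in all libraries), and of 7 tested goblet genes 4 fell and 0 rose (58.8 to 71.7 CPM with tyramine and 121 to 148 CPM in controls). Of 9 tested stem cell genes 3 fell and 0 rose (185 to 194 CPM with tyramine and 262 to 310 CPM in controls), and of 6 tested squamous keratin genes 3 rose and 0 fell (519 to 954 CPM with tyramine and 2.25 to 5.99 CPM in controls). The part of these shifts in the changes of Ephb2, Ephb3, Rnf43 or any other member was not tested, and in bulk RNA fewer cells of a type and less RNA per cell cannot be told apart.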

How the data were processed

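RNA sequencing was done on 6 libraries of mouse intestinal organoids. Stranded mRNA libraries with molecular identifiers of 8 bases were made from 2 µg of RNA and read as paired ends of 150 bases, per the labels' protocols. The submitters' processing notes name STAR 2.5.3a and mm10. The counting program, annotation, strand setting and identifier handling are not stated there. Raw counts by gene symbol, a column for each library, were deposited, and columns were matched to sample titles. Values of 1 to 8 counts were even in 72.6% to 78.7% of cases, so 1 count may not be 1 molecule, and floors cover counting error only.

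Genes were filtered with edgeR 4.0.16 (filterByExpr, minimum count 10, minimum total 15; R 4.3.3), scaled by TMM (factors 0.962 to 1.04) and tested with the quasi-likelihood F-test, robust, group as the only term, on all 12139 genes. Benjamini-Hochberg adjusted p under 0.05 was called. SE is the log2 fold change over the square root of F, with 95% intervals from the same fit. CPM per kilobase uses the union of GENCODE M21 exons (GRCm38). The scripts were tested on simulated counts with equal scatter in both groups, so the test does not cover the wider scatter of the tyramine libraries. DESeq2 1.42.0 and limma 3.58.1 were alternatives.

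The members, lists and pairs were chosen with earlier results of these data known. Of each pathway list, named genes are called genes (smallest p first, at most 4 per direction) or else that with the smallest p; some are not used here, and others were chosen after their values were seen.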

Additional observations from a re-analysis of the deposited data

How the results depend on the processing

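Of 160 refits of single members (16 alternatives each), 147 kept direction and side of the threshold, 7 lost a call (Ephb3 in 5, Rnf43 in 2), 4 gained one (Sox9 and Tcf7 in 2 each) and 2 changed sign, both of Cd44, which lay between -0.10 and 0.054 with single libraries left out. By DESeq2, 4 members fell and 1 rose. That tool called more genes over the whole table, with 2084 falling and 2003 rising, 29.8% of 13718 genes. Leaving out each library gave 0 to 1 rising and 1 to 3 falling members, 934 to 1510 rising and 1035 to 1797 falling genes over the whole table against 1518 and 1609, and 9 to 14 rising and 6 to 12 falling pathway genes against 14 and 12. The replicate numbers did not pair the samples (correlations of deviations between same-numbered libraries -0.019, -0.010 and 0.011), and with the replicate number as a block 0 members rose (Ephb3 had a log2 fold change of 2.41 and an adjusted p = 0.098), 2 fell, and 1204 and 1390 genes rose and fell. The causes were not tested. Library totals alone moved the median log2 fold change of all genes to -0.081. The differences in log2 ratio kept their sign in each refit (Ephb2 over Ephb3 -4.40 to -3.21, Rnf43 over Znrf3 -2.83 to -1.83, Lgr4 over Rnf43 0.32 to 0.56). The ratios of the groups did not overlap for any of these pairs, so leaving out a library could not change a sign. Halved counts, tried because most low counts were even, left Ephb3 at 2.47 (adjusted p = 0.0233) and Znrf3 at 1.62 (adjusted p = 0.125).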

Other observations

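The Wnt inhibitor genes Nkd1, Notum and Apcdd1 had too few counts to be tested, and in the tyramine group most counts of Nkd1 and of Notum sat in 1 library. Nkd1, a Dishevelled antagonist gene, had 7, 7 and 64 counts in tyramine replicates 1 to 3 and 10, 8 and 2 in control replicates 1 to 3. Notum, which encodes a Wnt deacylase, had 33, 2 and 0 counts with tyramine and 11, 0 and 0 in controls. Apcdd1, a membrane inhibitor gene, had 2, 4 and 2 counts with tyramine and 31, 70 and 6 in controls. Sox4, a transcription factor gene and Wnt target with enough counts for the test, had 64, 44 and 224 counts with tyramine and 8, 12 and 22 in controls, with no overlap and an edgeR adjusted p = 0.0634. These genes were picked after their values were seen.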
